A study of Homo sapiens with 12 samples.

Results

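The mRNAs described here come from the replication-dependent histone genes, the clustered genes that supply the linker histone H1 and the core histones H2A, H2B, H3 and H4 for newly made chromatin. Members were chosen by symbol alone (H1-1 to H1-6 and every protein-coding H2AC, H2BC, H3C and H4C gene), so the rule itself uses no measured value. GENCODE 44 lists 69 such genes, 55 on chromosome 6, 13 on chromosome 1 and 1 on chromosome 12. Of these, 60 had a row in the deposited table, out of 24559 gene symbols, and 36 passed the filter on low counts, out of 16538 genes tested. By class, the table held 4 H1, 16 H2A, 16 H2B, 12 H3 and 12 H4 genes, of which 3, 11, 10, 5 and 7 were tested. The 24 untested members reached at most 14 counts in any library, and 6 of the 60 stayed at or under 3 counts in all 12. The other 9 members were not analysed here.
Polysome-associated RNA was sequenced from 3 established triple-negative breast cancer (TNBC) cell lines in 12 libraries, 2 per group. MDA-MB-231 and SUM159 cells carried either a non-silencing control shRNA (EV) or an shRNA against TRMT112 (KD) and were kept under puromycin. BT549 cells carried either the empty expression vector (EV) or the TRMT112 open reading frame (OE) and were selected with G418. TRMT112 is the shared cofactor of several methyltransferases that modify tRNA, rRNA and proteins, and the comparisons ask how its level relates to the mRNAs found on polysomes. The lines also differed in culture medium, and nothing states that the 2 libraries of a group came from separate cultures, so the p-values measure only the spread between these libraries.

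Replication-dependent histone mRNAs are made mainly in S phase, when DNA is copied. Unlike other mRNAs they normally carry no poly(A) tail: the pre-mRNA is cut just after a conserved stem-loop, which the stem-loop binding protein SLBP holds during processing, translation and decay. Most of these genes lack introns. Replication-independent variants, such as H3-3B or H2AZ1, are made throughout the cell cycle as ordinary polyadenylated mRNAs. The sample labels describe a kit with oligo-d(T) selection, whereas the study's methods name a total RNA kit after rRNA depletion. This matters here because an mRNA that ends at the stem-loop has no tail for oligo-d(T) to bind. Which kit made these libraries could not be settled from the sources used here.

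The stem-loops below carry the feature that sets these mRNAs apart, and are shown for a member with most counts in each class and for 5 of the 7 sequence types. Capitals mark the 16-base stem-loop, written as DNA in the direction of the mRNA, and lower case marks up to 5 bases on each side (GENCODE 44 transcripts, GRCh38).
H1-2: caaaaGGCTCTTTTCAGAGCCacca
H2AC18: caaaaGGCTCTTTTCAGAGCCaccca
H2AC6: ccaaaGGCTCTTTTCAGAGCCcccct
H2AC20: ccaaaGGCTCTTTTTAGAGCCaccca
H2BC12: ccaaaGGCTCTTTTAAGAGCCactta
H3C10: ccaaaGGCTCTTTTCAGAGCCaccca
H4C8: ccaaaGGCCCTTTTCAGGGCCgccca
H4C14: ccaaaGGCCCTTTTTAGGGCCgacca
The capitals lie at chr6:26055744-26055759 on the minus strand for H1-2, at chr1:149842223-149842238 on the minus strand for H2AC18 and at chr6:26124669-26124684 on the plus strand for H2AC6. For H2AC20 they lie at chr1:149887391-149887406 on the plus strand and for H2BC12 at chr6:27146366-27146381 on the minus strand. For H3C10 they lie at chr6:27810516-27810531 on the plus strand. For H4C8 they lie at chr6:26285131-26285146 on the minus strand and for H4C14 at chr1:149833032-149833047 on the plus strand. All of these positions are in the 3′ UTR of an intronless transcript. The pattern searched, on the transcript strand only, was GG, any 2 bases, CTTTT, any 1 base, AG, any 2 bases and CC. It occurred in the last 300 bases of 85 of 252835 annotated transcripts (0.0336%), and 67 of these belonged to the 69 members. The stem-loop was at most 20 bases from the 3′ end in 1 transcript of each of 65 members, 22 to 67 bases after the stop codon with a median of 35. In 47 of those 65 transcripts exactly 5 bases followed it. There were 7 stem-loop types: the one of H1-2, H2AC18, H2AC6 and H3C10 was shared by 39 members, the one of H4C8 by 10 H4 genes, the one of H2BC12 by 9 members and the one of H4C14 by 4 H4 genes, with 3 more in 1 H2A gene each. AATAAA or ATTAAA, the usual poly(A) signals, stood in the last 50 bases of 2 of the 65 stem-loop-ending transcripts and of 19 of the 38 other annotated member transcripts.

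Totals per library ran from 22954226 to 27434677 expected counts. TRMT112 checked the labels: its normalized counts were 4137 and 3928 in MDA-MB-231 EV against 1760 and 1678 in KD, 6317 and 6550 in SUM159 EV against 3899 and 3690 in KD, and 3068 and 3080 in BT549 EV against 4276 and 4309 in OE. Of the markers listed for mesenchymal breast cancer lines, VIM, CD44, CAV1 and AXL were at 4295 or more normalized counts in every group. EGFR, on the same list, ran from 1114 in SUM159 KD to 3260 in MDA-MB-231 EV. Of the 6 luminal or HER2 markers listed, ESR1 had no row and PGR did not exceed 6.61 normalized counts in any group. GRB7 ran from 0.86 to 18.5, FOXA1 from 1.66 to 111 and GATA3 from 24.0 in MDA-MB-231 EV to 1377 in BT549 EV. ERBB2 was at 1409 to 3352, so it was not low. Among markers of other cell types, 3 of 3 for fibroblasts, 3 of 4 for epithelium, 2 of 3 for leukocytes and 2 of 3 for endothelium had a row. Of the leukocyte markers PTPRC did not exceed 9.92, but CD68 ran from 164 in BT549 OE to 4699 in MDA-MB-231 KD. Of the epithelial ones EPCAM and CDH1 did not exceed 70.7 and 57.1, but KRT8 ran from 9.88 in BT549 EV to 8504 in SUM159 KD. The replicates of a group differed by a median of 0.0633 to 0.0786 on the log2 scale. The table lists no transcript with 0 counts in all 4 BT549 libraries, so an mRNA missing from BT549 is missing from this account. H1-5, H2BC6 and H3C11 had a transcript that was marked as missing in MDA-MB-231 and SUM159 and was counted as 0 there.

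Replication-dependent histone mRNAs made up a small part of the polysome-associated counts in every group. Which kit was used could not be settled, and the part of library preparation in this share was not tested. Normalized counts here are counts scaled by TMM to a library of 23851672. They are relative to the other mRNAs of a library and are not amounts per cell. The study reports lower polysome peaks in KD cells of both lines and higher ones in OE cells, which such counts do not show. Summed over the 60 members they came to 5013 ± 51.0 (SD, n = 2) in BT549 EV, 3092 ± 7.80 in MDA-MB-231 KD, 2387 ± 71.8 in MDA-MB-231 EV, 2255 ± 45.6 in BT549 OE, 1913 ± 21.0 in SUM159 EV and 1782 ± 43.7 in SUM159 KD. Scaled to 1000000 counts per library (CPM), this was 210 in BT549 EV and 74.7 to 130 in the other groups. No 2 neighbours in this order overlapped, though the lowest MDA-MB-231 EV library (2336) and the highest BT549 OE library (2287) were close. These are bulk samples, so fewer cells in S phase and less histone mRNA per cell cannot be told apart, nor can ribosome loading and mRNA amount, since no total RNA was sequenced.

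**Figure D1:**
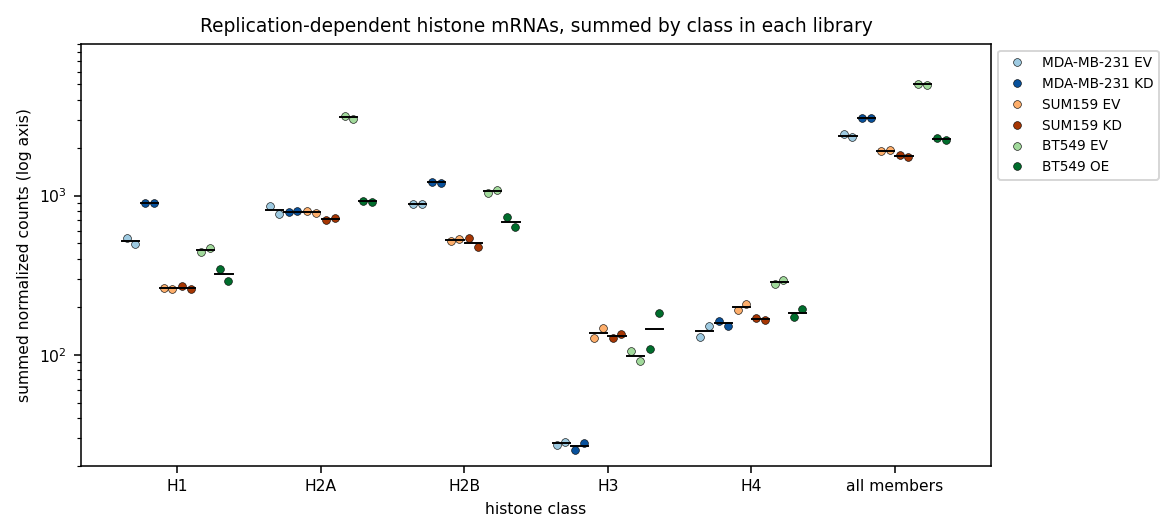
Summed normalized counts (log axis) of the members of each histone class and of all 60 members, with a point for each library and a bar for the mean of the 2 libraries of a group. BT549 EV stands highest for H2A (3110) and for all members (5013), and MDA-MB-231 lowest for H3 (27.7 in EV and 26.6 in KD).

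The classes were far from equal, although a nucleosome takes the core histones in equal numbers. Per length, as CPM per kilobase, the members of MDA-MB-231 EV summed to 53.8 for H2A and 57.1 for H2B but to 1.85 for H3 and 5.67 for H4. In BT549 EV the sums were 211 for H2A, 69.5 for H2B, 6.01 for H3 and 13.4 for H4, and in SUM159 EV they were 47.2, 35.7, 7.95 and 13.9. The counts of the replication-independent variants were far above those of the members on the same scale. H3-3A and H3-3B together reached 1319 in MDA-MB-231 EV, 2016 in SUM159 EV and 1150 in BT549 EV, which was 711, 254 and 191 times the summed H3 members. The H2A variants (H2AZ1, H2AZ2, H2AX, H2AJ, MACROH2A1 and MACROH2A2) exceeded the H2A members 10.0 to 81.2 times over the 6 groups. These ratios set polyadenylated mRNAs against mRNAs that normally have no tail, and the kit used could not be settled. The part of library preparation in them was not tested.
Within each class a few genes held most of the counts. The 8 members with the highest mean over the 12 libraries (H1-2, H2BC12, H2AC6, H2AC18, H2AC19, H2AC25, H2BC5 and H2BC21) took 85.0% of member counts in MDA-MB-231 EV, 63.0% in SUM159 EV and 86.5% in BT549 EV. Per length the highest members were H2AC18 in BT549 EV (75.9 CPM per kilobase), H2BC12 in MDA-MB-231 EV (34.2) and H2BC12 in SUM159 EV (17.2). H1-2, a somatic linker histone, was at 29.1 in MDA-MB-231 EV, 12.9 in SUM159 EV and 25.6 in BT549 EV. The other somatic linker histones in the test, H1-3 and H1-4, were at 0 to 1.65 over the 6 groups. The H3 member with most counts over the 12 libraries, H3C10, ran from 0.36 in MDA-MB-231 EV to 4.55 in BT549 OE. The H4 member with most counts over the 12 libraries, H4C14, ran from 2.00 in SUM159 EV to 4.42 in BT549 EV. In SUM159 EV other H4 members were above it, among them H4C11 (3.32) and H4C15 (2.62).

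**Figure D2:**
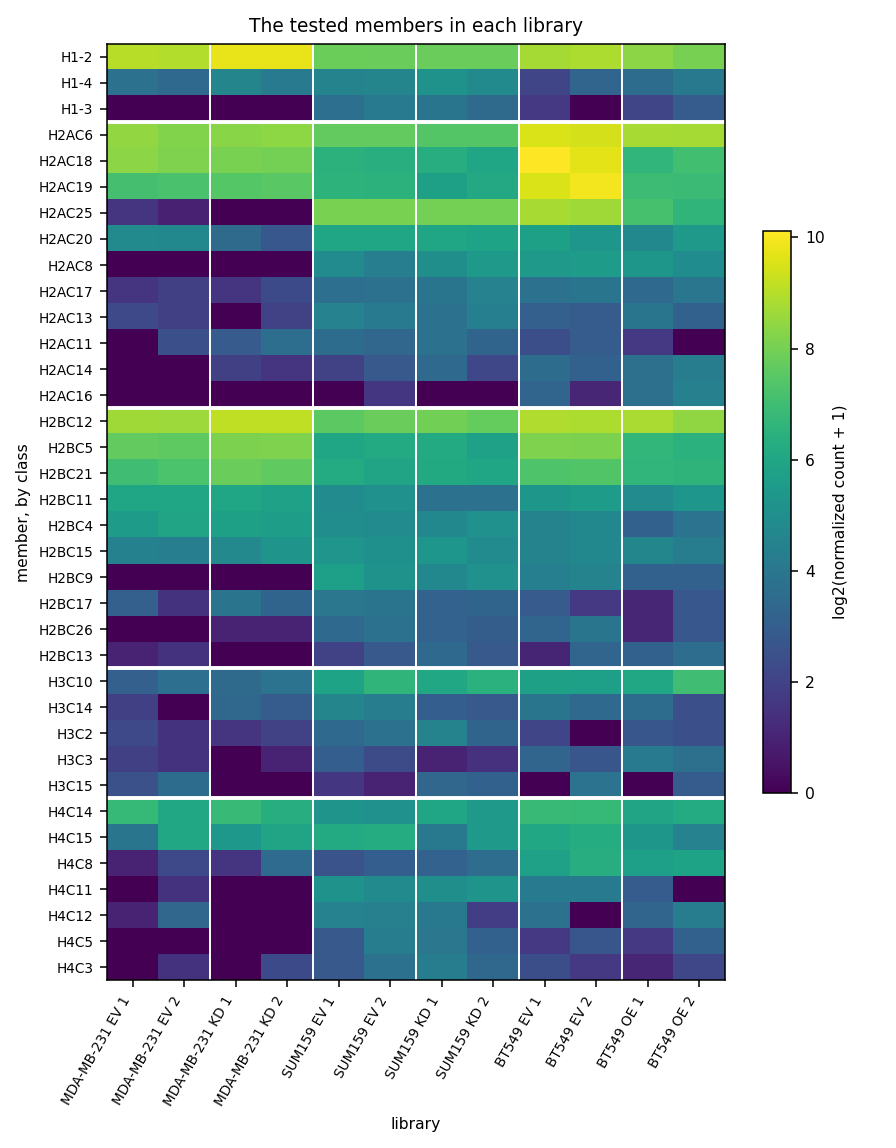
Normalized counts of the 36 tested members in each of the 12 libraries, as log2(normalized count + 1), with the members ordered by mean within each class. H1-2, H2BC12 and H2AC6 are bright in every library, no H3 row exceeds 13.5 normalized counts in an MDA-MB-231 library, and the MDA-MB-231 columns hold the most rows at or near 0.

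Where both kinds were in the table, more counts were usually assigned to other annotated transcripts than to the one ending at the stem-loop. These counts are not corrected for transcript length, so they do not give shares of molecules. Of the 60 members, 42 had in the table only a transcript ending at the stem-loop (H1-2, H2BC12, H2AC18 and H2AC19 among them), 15 had both kinds and 3 had only others. In 12 of the 15, over 50% of the counts of the 6 groups were assigned to the longer or spliced transcripts without a stem-loop end. This held for all 5 of them with a mean of at least 50 counts: 65.7% for H2AC6, 85.1% for H2AC25, 77.5% for H2BC5, 81.2% for H3C10 and 90.6% for H4C14. Over the 15 members together the share was 72.8 to 81.9% in the 12 libraries, and over all 60 it was 28.5 to 40.3%. H2BC21 had only an extended transcript, of 2224 bases, in which 1729 bases followed the stem-loop.
For H2AC6, 208 normalized counts in MDA-MB-231 EV and 475 in BT549 EV lay on its other transcripts, against 118 and 249 on the stem-loop-ending one. The other transcripts have 1668 and 1462 bases and the stem-loop-ending one has 519, so the larger count does not mean more molecules. For H2AC25 in BT549 EV the split was 343 against 79.5. The division of a read between transcripts of 1 gene is an estimate, since both kinds share the coding exon. Small RNAs known to lack a poly(A) tail were scarce: of 20 listed (7SL, 7SK, RNase P, Y and spliceosomal RNAs and the like), 9 were in the table, 2 (RN7SL1 and RN7SL2) passed the filter and all 9 summed to 44 to 129 normalized counts over the 6 groups. The list was not limited to RNAs found on polysomes, so it is no control for a missing tail. Whether library preparation sets these levels was not tested.

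**Figure D3:**
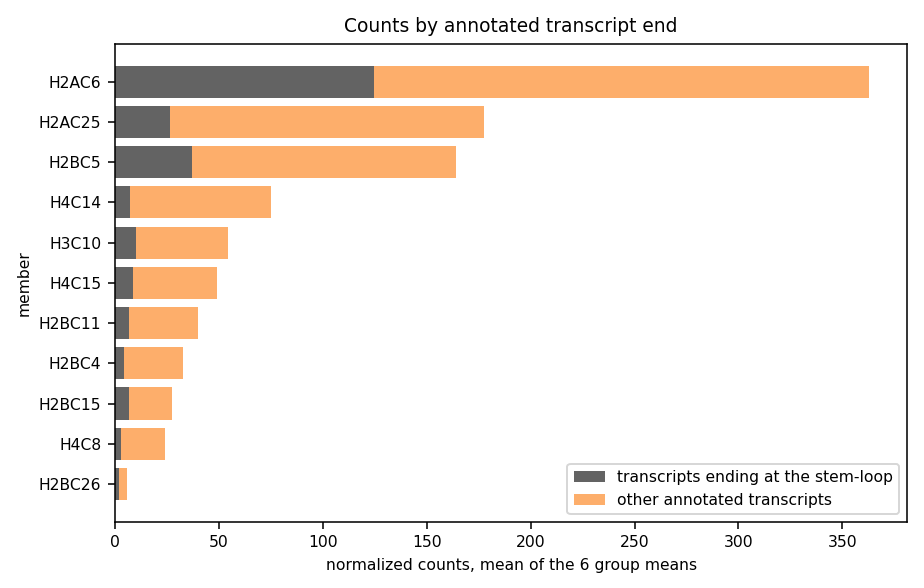
Normalized counts, as the mean of the 6 group means, assigned to annotated transcripts that end at the stem-loop (grey) or elsewhere (orange), for the 11 tested members that have both kinds in the table. The orange part exceeds the grey part in each member, from 65.7% in H2AC6 to 90.6% in H4C14, without correction for transcript length.

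Some members cannot be separated by sequence. H2AC18 and H2AC19, on opposite strands of chromosome 1, matched at 533 of 534 aligned bases, H3C14 and H3C15 at 518 of 522, and the stem-loop-ending transcripts of H4C14 and H4C15 at all 396. The most abundant transcript of each member was also compared with the transcripts of the other members, in windows of 150 bases, the read length. By this measure 48 of the 60 members were unique throughout among the members, while 11 shared over 50% of their windows with another member. Genes outside the members were not compared, so reads shared with them are not covered. In BT549 EV, H2AC18 was at 1107 and 824 normalized counts and H2AC19 at 748 and 979. The library that was higher for the former was lower for the latter, and their sums were close (1855 and 1803). Values of these 3 pairs are therefore also given as sums. In addition, exons of 4 tested members overlapped another gene of the table: H2AC6, H2AC17, H2BC4 and H4C8.

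In BT549, replication-dependent histone mRNAs were a smaller share of the polysome-associated counts in cells with TRMT112 OE than in EV cells. The ratio to EV was lowest for H2A genes: their sum went from 3184 and 3036 normalized counts in the EV libraries to 923 and 915 in the OE libraries, 0.30 times the EV level. The sums of H1, H2B and H4 members were 0.70, 0.64 and 0.64 times the EV level, and all 60 members together 0.45 times. H3 members went the other way at 1.49 times, with OE libraries at 108 and 183 against 105 and 90.6 in EV, a spread mostly within H3C10. The H2AC18 and H2AC19 pair accounted for 57.9% of the difference, and without it the member sum was 0.635 times the EV level.
Of the 36 tested members 13 were lower in OE at an adjusted p under 0.05 (36.1%), beside 35.0% of all genes tested, and 1 was higher (2.78%), beside 35.6%. In either direction this made 38.9%, beside 70.6%. The share of lower members was thus near that of all genes and the share of higher members was below it. The median log2 fold change of the members was -0.41, against 0.02 over all genes. Among the 10 members that averaged 50 counts or more per library 9 were lower and 1 was higher, beside 40.9% and 39.4% of the genes at that level.
The H2AC18 and H2AC19 pair summed to 1855 and 1803 normalized counts in EV and to 220 and 246 in OE. The summed change was -2.97 on the log2 scale (SE 0.08, adjusted p = 7.16e-20), and each gene alone gave -3.07 and -2.87. The EV libraries lay far above the OE libraries.
H2AC25, an H2A gene on chromosome 1, was at 442 and 403 in EV and 141 and 98.2 in OE, a change of -1.82 (SE 0.15, adjusted p = 1.86e-10). H2AC6 was at 742 and 705 in EV and 436 and 429 in OE (log2 -0.74, SE 0.09, adjusted p = 1.22e-07). Both H2A genes were lower in each OE library than in either EV library.
H2BC5 had the largest change of the H2B genes that averaged 50 counts or more, from 281 and 278 to 102 and 88.1 (log2 -1.56, SE 0.15, adjusted p = 2.15e-09). H2BC21, the gene with the extended transcript, went from 158 and 162 to 99.4 and 93.7 (log2 -0.73, SE 0.17, adjusted p = 0.000612). The linker histone H1-2 went from 431 and 461 to 328 and 261 (log2 -0.60, SE 0.10, adjusted p = 1.37e-05). None of these overlapped between the groups.
H2BC12, the most abundant H2B mRNA, was at 473 and 473 in EV and at 449 and 347 in OE. Its change of -0.25 (SE 0.11, adjusted p = 0.0475) rested on the second OE library: without it the change was -0.08. The call was also lost without either EV library and kept in 5 of 8 other settings. The H3 gene H3C10 was at 52.4 and 51.9 in EV and at 66.3 and 129 in OE (log2 0.90, SE 0.32, adjusted p = 0.0155), and without that same OE library the change was 0.34 and no longer called, nor was it called without either EV library. H4C14 and H4C15 were called at -0.74 and -1.20, each in 2 of the 4 fits that left out a library, and as a sum they went from 181 and 184 to 99.4 and 96.0 (log2 -0.90, SE 0.16, adjusted p = 2.37e-05).
H2BC4, H2BC9 and H4C11 completed the lower members, at -1.14, -1.40 and -2.31, all under a mean of 50 counts. H4C11 rested on the second OE library, which was at 0 counts: without it the change was -1.35. Its sequence is shared over 88.8% of 150-base windows, and H4C12, shared over 89.5%, was at 13.1 and 0 in EV and 8.84 and 18.1 in OE, so this call is uncertain. H2BC4 was not called without the second EV or the first OE library, at -0.80 in the latter case, and H2BC9 was not called when any library was left out or by DESeq2, which did not call H4C15 either. The other 22 tested members did not pass the test. Markers of other cell types also differed between these groups: the summed level of the 3 fibroblast markers was 7.15 in EV and 275 in OE (DCN 0 against 185, LUM 0 against 77.0, PDGFRB 7.15 against 12.3), the leukocyte markers in the table summed to 4205 and 168, nearly all of it CD68, the epithelial ones to 67.5 and 35.7, and the endothelial ones to 0.55 and 7.28. Their part in the result was not tested.

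**Figure D4:**
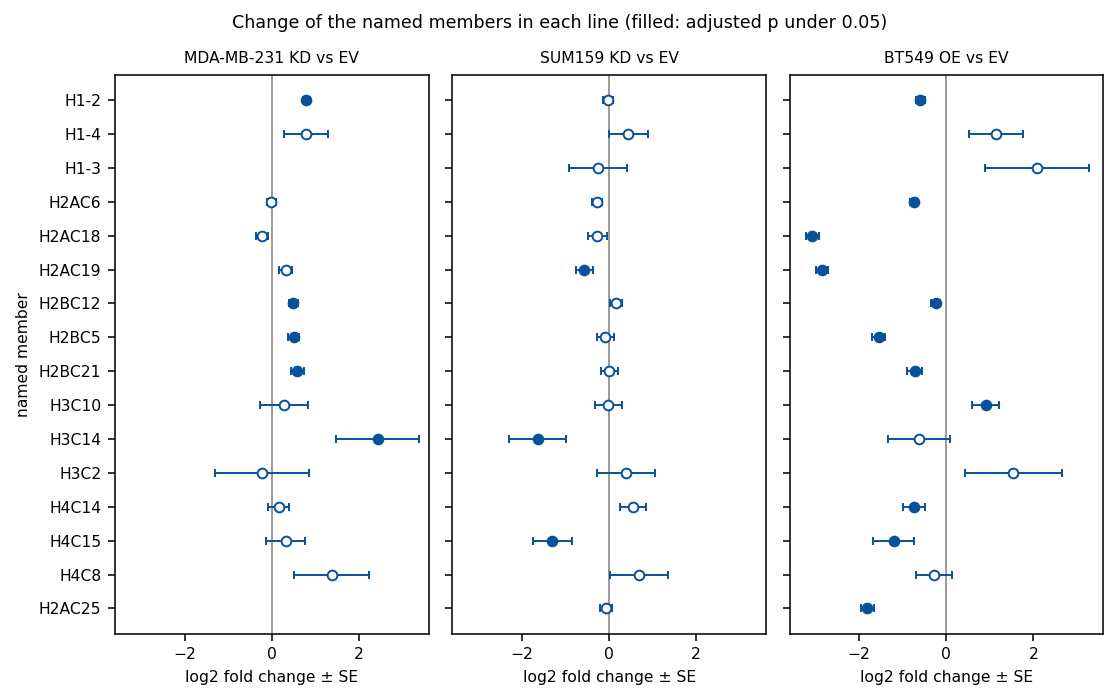
Fitted log2 fold change with its SE for the 16 named members in each line, relative to EV, with filled points for an adjusted p under 0.05. H2AC18 (-3.07), H2AC19 (-2.87) and H2AC25 (-1.82) stand farthest left in BT549 OE, and members at 0 in both libraries of a group have no point.

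In MDA-MB-231, a few abundant histone mRNAs were a larger share of the polysome-associated counts in KD cells than in EV cells. The member sum was 2437 and 2336 normalized counts in EV and 3097 and 3086 in KD, 1.30 times the EV level. The H1 sum was 1.73 times and the H2B sum 1.37 times the EV level, while H2A, H3 and H4 were at 0.98, 0.96 and 1.12 times. H1-2 and H2BC12 alone made up 75.8% of the added counts.
The test called 5 of 36 members higher (13.9%), beside 21.2% of all genes, and 2 lower (5.56%), beside 16.5%. In either direction this made 19.4%, beside 37.7%. The share of members called was thus under that of all genes in both directions. However, the 36 include 5 members at 0 counts in every MDA-MB-231 library, which could not be called. The median log2 fold change of the 36 members was 0.08, against 0 over all genes. Of the 10 members that averaged 50 counts or more 4 were higher and 0 lower by edgeR, beside 27.0% and 20.4% of such genes.
H1-2 was at 525 and 489 in EV and 874 and 882 in KD (log2 0.79, SE 0.08, adjusted p = 6.44e-08). Both KD libraries exceeded both EV libraries, and no setting tried ended the call. The H2B genes called moved the same way. H2BC12 was at 410 and 399 in EV and 567 and 569 in KD (log2 0.49, SE 0.10, adjusted p = 0.000523), and H2BC5 at 205 and 193 in EV and 278 and 287 in KD (log2 0.51, SE 0.13, adjusted p = 0.00301). H2BC21 was at 128 and 153 in EV and 222 and 200 in KD (log2 0.59, SE 0.15, adjusted p = 0.00349), without overlap, but was not called without the first EV library (0.46) or the first KD library (0.51).
The abundant H2A mRNAs gave no call. H2AC6 was at 357 and 294 in EV and 315 and 332 in KD (log2 -0.01, SE 0.10, adjusted p = 0.989), and the H2AC18 and H2AC19 pair summed to 464 and 436 in EV and 447 and 439 in KD (log2 -0.02, SE 0.08, adjusted p = 0.884). For both the KD values lay within the EV range.
The remaining calls were of mRNAs with few counts. H2AC20 was at 27.2 and 25.5 in EV and 10.3 and 5.8 in KD (log2 -1.70, SE 0.43, adjusted p = 0.00312), and was not called without the second KD library (-1.34). H3C14 was at 3 and 0 counts in EV and 10 and 7 in KD, a ratio of 5.81 with a 95% counting interval of 1.68 to 30.9. Its near copy H3C15 was at 5 and 12 counts in EV and 0 in both KD libraries, at least 2.75-fold lower against a floor of 3 counts per library. Summed, the pair showed no call (7.51 and 10.9 normalized counts in EV, 9.35 and 6.73 in KD, log2 -0.20, SE 0.60, adjusted p = 0.858). H3C14 and H3C15 each lost the call without the second EV library or either KD library, and H3C14 kept it in 2 of 6 other settings. Beside these changes, the summed fibroblast markers were at 224 in EV and 584 in KD (PDGFRB in nearly all of it), the endothelial ones at 26.8 and 102, the epithelial ones at 6877 and 8192 and the leukocyte ones at 4320 and 4700. Their part in the result was not tested.

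In SUM159, the replication-dependent histone mRNAs differed little in sum between KD and EV cells. The member sum was 1898 and 1928 normalized counts in EV and 1813 and 1752 in KD, 0.93 times the EV level, and the class sums were between 0.84 times (H4) and 1.01 times (H1). The test called 4 of 36 members lower (11.1%), beside 31.4% of all genes, and 0 higher, beside 28.6%. In either direction 60.1% of all genes were called, so that the share of members called was lower on both sides. edgeR also gave 0 members higher at an unadjusted p under 0.05, and DESeq2 called 0 higher. Of the 10 members that averaged 50 counts or more 0 were higher and 1 was lower by edgeR, beside 33.9% and 38.5% of such genes. The median log2 fold change of the members was -0.06, against 0 over all genes.
H1-2 was at 229 and 220 in EV and 221 and 220 in KD (log2 -0.02, SE 0.11, adjusted p = 0.896), and H2AC25, the member with most counts in this line, at 267 and 266 in EV and 252 and 255 in KD (log2 -0.07, SE 0.13, adjusted p = 0.696). H2AC6 was at 205 and 204 in EV and 169 and 169 in KD, without overlap, but its change of -0.27 (SE 0.12) did not pass the test (adjusted p = 0.0509).
The lower members were H2AC19, H2BC11, H3C14 and H4C15. H2AC19 was at 92.6 and 89.3 in EV and 53.3 and 68.2 in KD (log2 -0.57, SE 0.20, adjusted p = 0.0158) and, summed with H2AC18, went from 182 and 168 to 132 and 130 (log2 -0.42, SE 0.12, adjusted p = 0.00307). H2BC11 was at 28.2 and 34.1 in EV and 13.1 and 12.9 in KD (log2 -1.25, SE 0.36, adjusted p = 0.00451), and was called whichever library was left out. H2AC19 alone was not called without the first EV library (-0.55) or the first KD library (-0.42).
H4C15 was at 71.5 and 76.2 in EV and 16.1 and 42.3 in KD (log2 -1.31, SE 0.45, adjusted p = 0.0156), while its copy H4C14 was at 36.2 and 34.1 in EV and 60.3 and 43.1 in KD (log2 0.54, SE 0.31, adjusted p = 0.133). The pair thus moved in opposite directions when reads were divided, and summed it went from 108 and 110 to 76.4 and 85.4 (log2 -0.43, SE 0.17, adjusted p = 0.0331). H4C15 was not called without the first KD library (-0.80), without the second EV library or by DESeq2. H3C14 was at 23.2 and 18.1 in EV and 7.0 and 6.0 in KD (log2 -1.64, SE 0.66, adjusted p = 0.0363), was lost when any library was left out and by DESeq2, and gave no call as a sum with H3C15 (log2 -0.56, SE 0.51, adjusted p = 0.358). RN7SL1 and RN7SL2, RNAs without a poly(A) tail, were higher in KD (log2 1.27 and 1.53, adjusted p = 0.00279 and 0.00132). Beside these changes, the summed fibroblast markers were at 313 in EV and 132 in KD, the endothelial ones at 24.6 and 95.6, the epithelial ones at 4918 and 8507 and the leukocyte ones at 676 and 556. Their part in the result was not tested.

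The effects of KD in MDA-MB-231 and SUM159 were compared directly, as a difference of the log2 fold changes in the same model. It was above 0 for 6 members (16.7%), beside 27.7% of all genes, and below 0 for 2 (5.56%), beside 23.2%. Together 22.2% of the tested members differed between the lines, beside 50.9% of all genes. The 5 members at 0 counts in every MDA-MB-231 library could not be called here either. Of the 10 members that averaged 50 counts or more the difference was above 0 for 3 and below 0 for 0 by edgeR, beside 34.7% and 27.6% of such genes. H1-2 differed by 0.82 (SE 0.14, adjusted p = 3.17e-05), with both KD libraries above both EV libraries in MDA-MB-231 and overlapping values in SUM159. H2BC5 differed by 0.59 (SE 0.23, adjusted p = 0.0353), while H2BC12 (0.33, SE 0.17, adjusted p = 0.107) and H2BC21 (0.58, SE 0.25, adjusted p = 0.0575) did not pass the test although each was called in MDA-MB-231 alone. The H2AC18 and H2AC19 pair differed as a sum by 0.40 (SE 0.14, adjusted p = 0.0206) and the H4C14 and H4C15 pair by 0.63 (SE 0.23, adjusted p = 0.0224).

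**Figure D5:**
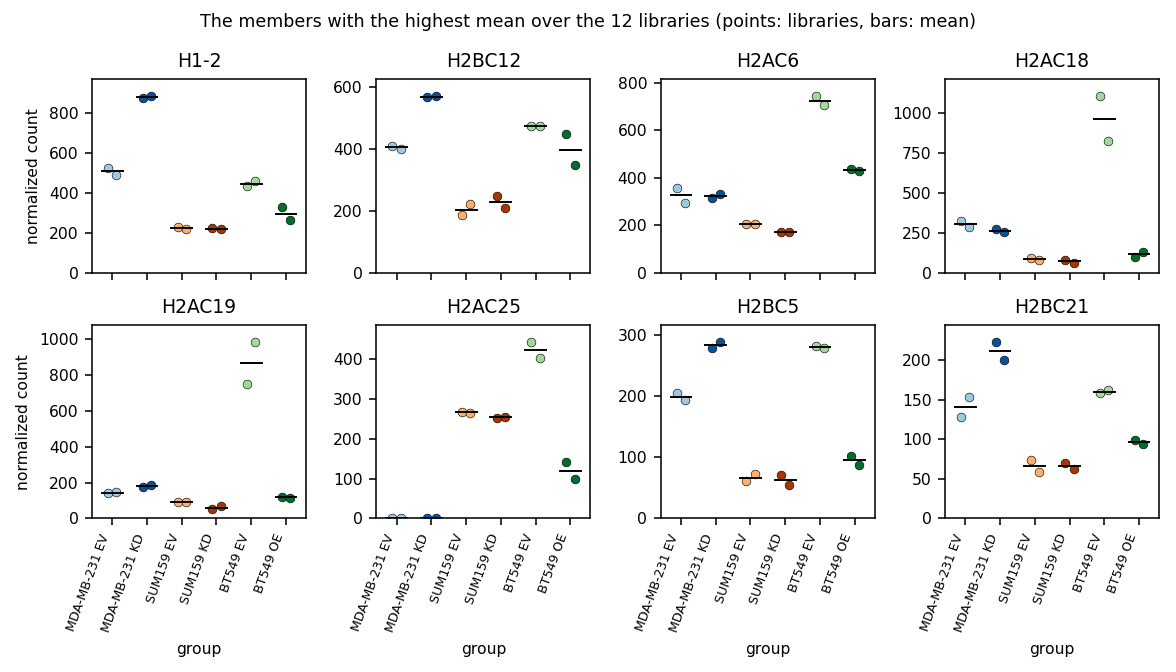
Normalized counts of the 8 members with the highest mean over the 12 libraries, a point per library and a bar at the mean of each group, with every axis starting at 0. H1-2, H2BC12, H2BC5 and H2BC21 are higher in MDA-MB-231 KD than in EV, H2AC25 is near 0 in MDA-MB-231, and H2AC18 and H2AC19 drop from BT549 EV to OE.

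The levels of the members were also compared between EV cells of the 3 lines. The shares called in either direction together were below those of all genes, but some shares by direction were above. Line, vector and medium cannot be told apart in these comparisons of EV cells. Between SUM159 EV and MDA-MB-231 EV 26 of 36 members differed (72.2%), beside 75.7% of all genes. In SUM159 16 were higher (44.4%) and 10 lower (27.8%), beside 39.2% and 36.4%. BT549 EV differed from MDA-MB-231 EV in 18 members (50.0%), beside 79.5%, with 17 higher (47.2%) and 1, H2BC4, lower (2.78%), beside 39.1% and 40.4%. Some members called higher than in MDA-MB-231 EV, such as H2AC8 and H2BC9, passed the filter only through other lines. BT549 EV differed from SUM159 EV in 14 members (38.9%), beside 78.4%, with 10 higher (27.8%) and 4 lower (11.1%), beside 37.7% and 40.7%. Of the 10 members that averaged 50 counts or more, 2 were higher and 8 lower in SUM159 EV than in MDA-MB-231 EV, beside 45.1% and 38.9% of such genes. In BT549 EV 6 were higher and 0 lower by edgeR than in MDA-MB-231 EV, beside 44.2% and 42.8%, and 9 were higher and 0 lower than in SUM159 EV, beside 41.7% and 44.7%.
Fewer histone genes were detected in MDA-MB-231. There, 16 of the 60 members exceeded 3 counts in both MDA-MB-231 EV libraries, against 35 in SUM159 EV and 26 in BT549 EV. The table lists only transcripts with counts in BT549, and the part of this selection in these numbers was not tested. At 0 counts in all 4 MDA-MB-231 libraries were 5 tested members, H1-3, H2AC8, H2AC16, H2BC9 and H4C5. A count of 0 allows up to 3 counts per library. Against that floor H2BC9 was at least 15.8-fold higher in SUM159 EV (51.4 and 36.1 normalized counts) and H2AC8 at least 16.0-fold higher in BT549 EV (42.6 and 46.4). Members at or near 0 in MDA-MB-231, H2AC25 below among them, passed the filter only through the other lines. That they stood higher elsewhere was thus set by the selection, and the values only describe it.
H2AC25 was at 2 and 1 counts in MDA-MB-231 EV and at 0 in both KD libraries, but at 265 and 265 counts in SUM159 EV and 405 and 365 in BT549 EV. The ratio to MDA-MB-231 EV was 192 for SUM159 EV (95% counting interval 65.3 to 934) and 305 for BT549 EV (104 to 1482). Most of its counts in SUM159 and BT549 lay on the 895-base transcript that runs 390 bases past the stem-loop.
Of the 8 most abundant members 6 had the order BT549 EV, MDA-MB-231 EV, SUM159 EV, although BT549 and MDA-MB-231 did not differ by the test for H2BC12 (adjusted p = 0.0582) and H2BC21 (adjusted p = 0.275). The H2AC18 and H2AC19 pair was at 1829 ± 36.7 (SD, n = 2) normalized counts in BT549 EV, 450 ± 19.3 in MDA-MB-231 EV and 175 ± 9.73 in SUM159 EV. H2BC5 was at 280 ± 1.66 in BT549 EV, 199 ± 8.11 in MDA-MB-231 EV and 66.3 ± 8.34 in SUM159 EV, and each neighbouring pair differed (BT549 against MDA-MB-231 by log2 0.49, adjusted p = 0.0016, and SUM159 against MDA-MB-231 by -1.58, adjusted p = 4.16e-09). H1-2 was lower in SUM159 EV than in MDA-MB-231 EV (log2 -1.18, SE 0.10, adjusted p = 2.08e-10), while between BT549 EV and MDA-MB-231 EV its libraries did not overlap but the change did not pass the test (log2 -0.18, SE 0.09, adjusted p = 0.0689). H3C10 was higher in SUM159 EV (57.4 and 98.3) and BT549 EV (52.4 and 51.9) than in MDA-MB-231 EV (7.5 and 11.8), by 2.99 (SE 0.41, adjusted p = 6.48e-07) and 2.41 (SE 0.44, adjusted p = 2.56e-05). Among EV cells H4C8 was highest in BT549, at 54.6 and 78.4 against 0.9 to 7.0 in the EV libraries of the other lines.

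Genes that make, process or package histones were followed from lists. Beside each list, the shares of all genes called higher and lower were 21.2% and 16.5% in MDA-MB-231 KD, 28.6% and 31.4% in SUM159 KD, and 35.6% and 35.0% in BT549 OE. Of 21 genes of histone mRNA synthesis and 3′ end formation, 1 was higher and 7 were lower in MDA-MB-231 KD, 6 and 9 in SUM159 KD, and 6 and 11 in BT549 OE, with median log2 fold changes of -0.13, -0.05 and -0.32. SLBP, which binds the stem-loop, was at 3402 and 3533 normalized counts in MDA-MB-231 EV and KD (log2 0.05, adjusted p = 0.363) and at 3315 and 3324 in SUM159 EV and KD (log2 0.00, adjusted p = 0.967). It was lower in BT549 OE, at 3422 against 5233 in EV (log2 -0.61, adjusted p = 7.37e-12). NPAT, the coactivator of histone gene transcription, passed the test in SUM159 KD, at 106 against 144 (log2 -0.45, adjusted p = 0.0221), and was at 0.23 and 0.28 in MDA-MB-231 KD and BT549 OE (adjusted p = 0.241 and 0.128). CASP8AP2 (FLASH), a factor of the histone locus body, was lower in all 3 comparisons (log2 -0.76, -0.34 and -0.41, adjusted p = 2.79e-06, 0.00422 and 0.000399). LSM10, LSM11 and ZNF473 belong to the U7 snRNP machinery that cuts histone pre-mRNA. LSM10 was not called in any of the 3, LSM11 was higher in SUM159 KD (0.57) and lower in BT549 OE (-0.36), and ZNF473 was lower in MDA-MB-231 KD (-0.46). CPSF2, CPSF3 and CSTF2 of the same list were lower in SUM159 KD (log2 -1.05, -1.02 and -1.12, adjusted p = 2.06e-13, 3.58e-11 and 3.46e-12). Of these, only CPSF2 was called in MDA-MB-231 KD (-0.51, adjusted p = 1.38e-07). In BT549 OE CPSF3 was higher (0.55), CSTF2 was lower (-0.72) and CPSF2 was not called. CDK2 had the smallest p of the list there (-0.86, adjusted p = 7.85e-16).
Of 24 histone chaperones and assembly factors, 5 were higher and 13 lower in MDA-MB-231 KD, 6 and 15 in SUM159 KD, and 10 and 12 in BT549 OE. The smallest p belonged to UBN1 (log2 0.52), ASF1B (0.93) and ANP32E (-0.83), in that order of comparisons. Of 22 S-phase genes, SLBP among them, 2 were higher and 13 lower in MDA-MB-231 KD, 4 and 14 in SUM159 KD, and 14 and 5 in BT549 OE, with medians of -0.19, -0.33 and 0.32. TYMS, which makes thymidylate, had the smallest p in BT549 OE (log2 0.84, adjusted p = 8.15e-17), MCM7 of the replicative helicase in MDA-MB-231 KD (-0.47, adjusted p = 4.85e-10) and MCM6 of the same helicase in SUM159 KD (-1.50, adjusted p = 1.49e-14). The median of all 36 tested members was on the other side of 0 from that of the S-phase genes in MDA-MB-231 KD (0.08) and in BT549 OE (-0.41). In MDA-MB-231 KD it includes 5 members at 0 counts in every library of that line, so its sign there says little. For the 10 members averaging 50 counts or more the medians were 0.30 in MDA-MB-231 KD, -0.05 in SUM159 KD and -0.74 in BT549 OE.
Of the 11 tested replication-independent histone variants, 5 were higher and 1 was lower in MDA-MB-231 KD, 4 and 5 in SUM159 KD, and 3 and 6 in BT549 OE. H1-10 was higher in MDA-MB-231 KD (log2 0.63, adjusted p = 1.24e-11), and H2AZ1 was lower in BT549 OE (log2 -0.64, adjusted p = 1.87e-16) and higher in SUM159 KD (log2 0.57, adjusted p = 2.6e-15). In CPM per kilobase, the H2A variants summed to 2106 in BT549 EV and 1516 in OE, with H2AZ1 lower, H2AZ2 higher (log2 0.40, adjusted p = 2.52e-10) and MACROH2A1 at 0.03 (adjusted p = 0.404).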

How the data were processed

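Members and gene lists were chosen with earlier results of these data known. According to the methods and labels, the authors used Trimmomatic for trimming, HISAT2 for alignment of the paired-end reads (GRCh38) and SAMtools for removal of duplicates. Removing duplicates can lower the counts of short, abundant mRNAs. The counting tool, annotation and strand setting are not given in the sources used here. Values in the deposited table are expected counts, by Ensembl transcript, where a read that matches several transcripts is divided. In 5.08% of its rows the MDA-MB-231 and SUM159 columns hold a missing mark beside their expected counts (unit recorded as other), taken as 0. Transcripts were matched to GENCODE 44 (79.6% of them, 99.25 to 99.41% of counts), summed per symbol and rounded.
Libraries of 22954226 to 27434677 counts were scaled by TMM. Genes kept by filterByExpr (minimum count 10) were tested with edgeR 4.0.16 (quasi-likelihood, 1 model of 6 group means, 6 residual degrees of freedom, R 4.3.3) and called at a Benjamini-Hochberg adjusted p under 0.05 over all 16538 genes. The test was checked on simulated counts, with changes set only in genes averaging 50 counts or more. All genes had the same spread there and the lines did not differ. The check therefore does not cover members under that mean. Intervals and floors (3 counts) cover counting error only.
Named members are the 3 with most counts per class and the 3 largest changes in each direction and comparison among called members with a mean of at least 50 counts. Of other genes, SLBP, NPAT, CASP8AP2, LSM10, LSM11, ZNF473 and those with the smallest p of a list are named, except 1 gene that is not reported here. Members called in a comparison or at 0 in a line are named too, after their values were seen. Alternatives were DESeq2 1.42.0, RLE and library-size scaling, the same without a filter or for genes averaging 50 counts or more, a block on replicate number, each line alone, marked transcripts left out, near copies summed, the most abundant transcript, and each library left out. Sequences were read with Biopython 1.88 and figures drawn with matplotlib 3.10.9.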

Additional observations from a re-analysis of the deposited data

Results flagged for a closer look

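The response to KD differed between MDA-MB-231 and SUM159 for 8 members by the test of the difference itself (MDA-MB-231 minus SUM159, log2). The differences were 0.82 for H1-2, 0.89 for H2AC19, 1.17 for H2BC11, 0.59 for H2BC5, 4.07 for H3C14 and 1.62 for H4C15, and -1.64 for H2AC20 and -8.38 for H3C15. The last value has no bound of its own, since H3C15 was at 0 in both MDA-MB-231 KD libraries. Summed with its near copy, the H3C14 and H3C15 pair differed by 0.37 (adjusted p = 0.758), the H2AC18 and H2AC19 pair by 0.40 (adjusted p = 0.0206) and the H4C14 and H4C15 pair by 0.63 (adjusted p = 0.0224). H1-2, H2AC19, H3C14 and H3C15 remained called in all 8 fits that left out a library, and H2AC20 in 7 of 8. H2BC5, H2BC11 and H4C15 were called in 3, 2 and 3 of these 8 fits and not by DESeq2. The part of read division between copies in these values was not tested.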

How the results depend on the processing

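Among named members, the settings other than leaving out a library kept direction and side of the threshold in 936 values, 47 lost and 16 gained a call and 5 reversed. With near copies summed, H3C14 was at -0.20 in MDA-MB-231 KD, H4C14 at -0.43 in SUM159 KD and 0.63 for the difference of the KD effects, and H4C15 at 0.75 for BT549 EV against SUM159 EV. On its most abundant transcript, H2AC6 was at 0.91 for SUM159 EV against MDA-MB-231 EV (adjusted p = 0.116), where the gene gave -0.67. For genes averaging 50 counts or more, where fewer members are tested, the calls were 0 lower in MDA-MB-231 KD, 1 lower in SUM159 KD, 8 lower in BT549 OE, 3 for the difference, 10 and 7 for SUM159 EV and BT549 EV against MDA-MB-231 EV, and 9 for BT549 EV against SUM159 EV. Lower calls in MDA-MB-231 KD were 1 with the line fitted alone or near copies summed. Higher calls in BT549 OE were 2 with the line alone. DESeq2 gave 2 lower calls in SUM159 KD and 5 for the difference. The cause of these shifts was not tested. Leaving out a library, with the lone sample of its group assumed to vary like the others, gave 3 to 6 higher and 0 to 3 lower calls in MDA-MB-231 KD, 0 higher and 1 to 3 lower in SUM159 KD, 0 to 2 higher and 9 to 11 lower in BT549 OE, and 5 to 8 for the difference. For the EV lines it gave 22 to 25, 17 to 18 and 11 to 15. Scaling by library size only turned the share of higher among all called genes in MDA-MB-231 KD from 56.2 to 36.7% and in BT549 EV against MDA-MB-231 EV from 49.1 to 38.4%, and shifted the median of all genes to -0.34 in the latter and -0.27 in BT549 EV against SUM159 EV.
Same-numbered libraries did not deviate together (r = -0.04 to 0.03 over 12590 genes), so the numbers do not pair them. With the replicate block the MDA-MB-231 KD test called 5 members higher and the BT549 OE test 13 lower, as without it, and calls over all genes went from 6240 to 6217 in MDA-MB-231 KD. The depth limits members under a mean of 50 counts, whose median SE was 0.89 in MDA-MB-231 KD against 0.14 for the others.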
